A study of Mus musculus with 6 samples.

Results

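The data are from mucosa of mice labelled as having an intestinal deletion of Rbm47, and of controls. Described here are 10 genes, out of 38561 counted, for the carriage of sulfate, chloride, bicarbonate and protons across the gut epithelium. They were taken from a list by symbol, each symbol matched 1 Ensembl gene, and all 10 passed the expression filter that left 16425 genes for testing. The list was drawn up by function with earlier results of the same genotype contrast in view, and Slc13a1 had been selected on its fold change in that contrast, so that the genotype differences of the members are given as descriptions, with an adjusted p only where leaving out a pool ended a call. By the labels, each of the 6 libraries holds mucosal RNA of 3 pooled mice of both sexes, and the study's methods allow for more mice in a pool. There are 3 libraries per genotype. The labels call the tissue small intestinal mucosa, and the study calls it jejunal. All mice were C57BL/6J, chow-fed and 8 to 12 weeks old by the labels. The Rbm47-IKO mice carry floxed Rbm47 alleles and a constitutive Vil1-driven Cre, which is active along the small and large intestine, and the controls are labelled wt, while the study's methods name floxed mice without Cre (Rbm47 fl/fl) as its controls. The individual mice behind a pool cannot be separated, so the spread given below is that between pools.

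Absorptive cells of the villus take up sodium and chloride by pairing a sodium-proton exchanger with a chloride-bicarbonate exchanger in the brush border. Cells of the crypt secrete chloride through the CFTR channel after loading it across the basolateral membrane with the sodium-potassium-chloride cotransporter. Sulfate enters enterocytes with sodium or in exchange for other anions, leaves by basolateral exchange, and inside the cell is activated for the sulfation of mucins, proteoglycans, steroids and xenobiotics. The protein made from Rbm47 binds RNA, and its known roles include mRNA editing, splicing and control of how long transcripts last.

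The study examined AUUUA and runs of U in the 3′ untranslated regions (UTRs) of RNAs that differed between genotypes, and the same features were counted here in the longest 3′ UTR that GENCODE M21 (GRCm38) lists for each member. The stretches around AUUUA are shown for Slc13a1, which has the largest genotype difference of the 10, and for the one place in Slc9a2, lower on average in the pools labelled Rbm47-IKO, where 2 copies overlap. They are written as DNA, 5′ to 3′ on the gene's strand, and capitals mark each ATTTA, which is AUUUA in the RNA.
Slc13a1, chr6:24088436-24088462, minus strand: gaagtgtgtATTTATTTAttgaaaagt
Slc13a1, chr6:24088327-24088353, minus strand: atagtaaaaaaATTTAtaatgattaat
Slc13a1, chr6:24088283-24088309, minus strand: aacaggctaatATTTAtgcttctatga
Slc9a2, chr1:40768318-40768344, plus strand: atgcctcagATTTATTTAtgaaaaaaa

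The 3′ UTR of Slc13a1 has 682 nucleotides with 4 AUUUA, or 5.87 per kb, and 3.04% of the 14131 tested genes with an annotated 3′ UTR have as many per kb or more. It holds 1 copy of UUAUUUAUU, a sequence that contains AUUUA and is present in 7.74% of those UTRs, and no other member holds one. The 3′ UTR of Slc9a2 has 1274 nucleotides with 6 AUUUA, or 4.71 per kb. The other members range from 0 per kb in Slc26a1 to 3.25 per kb in Slc12a2, and the median over all tested genes with a UTR is 1.18 per kb. At least 1 AUUUA is present in 9 of the 10 members and in 69.7% of all those genes. Runs of 6 or more U are present in 6 of the 10, with 9 each in Slc4a4 and Slc12a2 and 0 in Slc13a1, against 56.3% of genes with at least 1. Among members high in AUUUA, the pools labelled Rbm47-IKO were higher without overlap for Slc13a1 and Slc26a2. They were lower only on average for Slc9a2 and Slc12a2, whose pools overlapped between the genotypes. Slc9a2 and Slc12a2 therefore do not form a clear lower group to set beside Slc13a1. Whether AUUUA content goes with the direction of the genotype difference was not tested. The motif matches describe the sequence only, and binding of RBM47 was not measured here.

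The libraries had 31560320 to 38951830 counts, with overlapping totals in the genotypes. Counts over the whole Rbm47 gene showed no loss. Normalized CPM (counts scaled to the TMM-adjusted library size) of Rbm47 were 602.7, 624.6 and 619.8 in pools 1, 2 and 3 labelled Rbm47-IKO, and 459.8, 449.9 and 472.1 in the control pools. All 3 were above the control pools, by 0.42 on the log2 scale (standard error, SE, 0.10, adjusted p by edgeR = 0.0751). The counts cover all exons of the gene, and which exons were floxed is not given in the sources used here, so that reads from exons outside the deleted part do not check the deletion. Because these counts neither show nor exclude the deletion, the groups are named by their labels, as the pools labelled Rbm47-IKO and the controls. Every direction given here rests on those labels. The enterocyte markers were high in every library. Over 8 genes they summed to 35321.1 to 39042.2 CPM in the pools labelled Rbm47-IKO and 37372.7 to 40951.2 CPM in controls. Single genes ran both ways. Without overlap, Fabp2 was higher in the pools labelled Rbm47-IKO (8383.5, 8531.4 and 7692.8 against 6715.9, 5887.1 and 4717.7 CPM). Apoa4 (3336.8, 3548.2 and 3197.6 against 4295.2, 8088.2 and 7903.1 CPM) and Sis (7597.9, 7160.5 and 7727.3 against 10367.2, 8214.2 and 10948.1 CPM) were lower. The pools of the other enterocyte genes overlapped. Of the 6 colonic markers, Car1 had 0 counts in all 6 libraries, and Hoxb13 had 2.60, 3.54 and 5.18 CPM in the pools labelled Rbm47-IKO against 0, 0.553 and 0.302 CPM in controls. Summed levels of all 9 marker lists overlapped between the genotypes, and 0 of their 55 tested genes were called by edgeR, with 11 at an unadjusted p under 0.05 (16.8% of all tested genes) and 6 called by DESeq2 (7.83% of the 14442 genes to which it gave an adjusted p). The pools did not overlap for 12 of those 55 marker genes, against 23.3% of all tested genes. The largest spread was in 6 smooth muscle genes, at 360.9, 585.7 and 3301.9 CPM in the pools labelled Rbm47-IKO 1, 2 and 3 and 90.7, 2802.7 and 313.1 CPM in control pools 1, 2 and 3. Fibroblast markers spread in the same libraries, with 136.7, 221.5 and 333.2 CPM against 81.7, 393.9 and 133.6. In bulk mucosa, fewer cells of a type and less RNA per cell cannot be told apart.

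Levels were compared per kilobase of counted exon (RPKM from the normalized library sizes). On that scale the chloride-bicarbonate exchanger Slc26a6 was the highest of the 10 transcripts in controls, with 205.6 ± 27.9 RPKM (SD, n = 3 pools). Slc9a2 followed with 101.5 ± 31.9 RPKM (SD, n = 3), Slc9a3 with 62.5 ± 13.8 (SD, n = 3) and Slc26a2 with 46.6 ± 9.71 (SD, n = 3). Slc26a3, Slc4a4 and Slc13a1 had 28.1, 25.4 and 20.3 RPKM, and each overlapped with the next in the order. Cftr had 15.2 and Slc12a2 12.2 RPKM, and the sulfate exchanger Slc26a1 was the lowest with 1.05 ± 0.193 RPKM (SD, n = 3). Neighbours in this order whose control pools did not overlap were Slc26a6 and Slc9a2, Slc9a2 and Slc9a3, Slc26a2 and Slc26a3, and Slc12a2 and Slc26a1. The pools of Slc9a3 and Slc26a2 overlapped, as did those of Slc13a1 and Cftr, and of Cftr and Slc12a2. In the pools labelled Rbm47-IKO, Slc26a6 was again first with 155.3 ± 9.73 RPKM (SD, n = 3), and Slc13a1 stood second with 81.3 ± 16.2 (SD, n = 3), next to Slc9a3 with 81.0 ± 9.07 (SD, n = 3) and Slc26a2 with 77.0 ± 6.23 (SD, n = 3), whose pools overlapped. Slc9a2 came after these with 70.4 RPKM. The counted model of Slc9a3 is 2490 bases long and ends at position 74166064, whereas GENCODE M21 extends the gene to 74169442, so that reads from the longer 3′ end entered neither its count nor its length. The counted span was also the shorter one for Slc9a2, at 40681712 to 40768885 against 40680574 to 40769273 in GENCODE M21. For Slc26a6 it was 108854037 to 108912558 against 108853283 to 108913049. The order by RPKM depends on the counted lengths, from 2402 bases in Slc26a6 to 12370 in Slc26a2. By mean CPM, Slc26a2 was above Slc26a6 in controls, at 577.0 against 493.8, with overlapping pools. In the pools labelled Rbm47-IKO, Slc26a2 and Slc13a1 had 952.8 and 627.9 CPM on average, against 373.1 for Slc26a6.

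**Figure D1:**
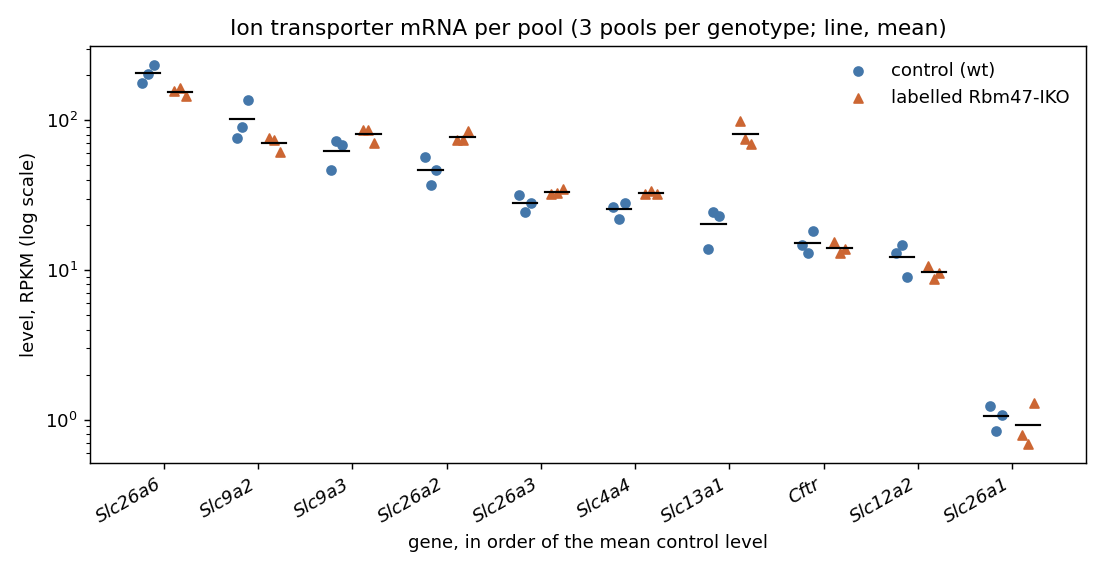
Level of each of the 10 transporter mRNAs per pool, in RPKM on a log axis, with genes in the order of the mean control level (circles, control pools; triangles, pools labelled Rbm47-IKO; lines, means of 3 pools). By RPKM, which depends on the counted lengths, Slc13a1 moves from the seventh place, at 20.3, to the level of Slc9a3 and Slc26a2, at 81.3.

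Of the 10 members, 5 had higher and 5 had lower fitted values in the pools labelled Rbm47-IKO, with a median log2 fold change of 0.065 against -0.006 over all genes tested. At an edgeR adjusted p of 0.05 or less, 1 of the 10 was called, Slc13a1, whereas 2.70% of all tested genes were called, 1.45% as higher and 1.25% as lower. DESeq2 called 2 of them, Slc13a1 and Slc26a2, and 7.83% of all genes with an adjusted p. The pools of the genotypes did not overlap for 5 of the 10, which were Slc13a1, Slc26a2, Slc26a3, Slc26a6 and Slc4a4, against 23.3% of all tested genes. Because the members were listed with this contrast in view, nothing is read from these shares.

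Among the sulfate carriers, both that belong to the brush border of the gut had higher values in the pools labelled Rbm47-IKO. Slc13a1 (ENSMUSG00000029700, chromosome 6, 24088283 to 24168092) encodes the sodium-sulfate cotransporter NaS1 of kidney and small intestine. It had 770.0, 581.4 and 532.4 CPM in the pools labelled Rbm47-IKO 1, 2 and 3, and 106.7, 187.2 and 176 CPM in control pools 1, 2 and 3. The lowest of the former was above the highest of the latter, and the spread within each genotype was wide, with control pool 1 below the other 2. The fold change was 4.01 (log2 2.0, SE 0.24). On leaving out 1 pool at a time the call was lost in 3 of 6 fits, with an edgeR adjusted p of 0.0626 without Rbm47-IKO pool 1, 0.0746 without Rbm47-IKO pool 2 and 0.0578 without control pool 3, while the log2 fold change stayed between 1.79 and 2.15. Control pool 1 had the fewest Slc13a1 transcripts and the highest summed level of 6 ileal markers among controls, at 2272.5 CPM against 1586 and 1786.9, and the pools labelled Rbm47-IKO had 1916, 2186.6 and 2395.2. Most of that sum was Cubn, and single ileal genes ran differently. Fabp6, the ileal bile acid binding protein, had 31.7, 39.8 and 18.6 CPM in the pools labelled Rbm47-IKO against 17.2, 3.98 and 2.55 CPM, and Slc51a, a subunit of the basolateral bile acid transporter, had 443.7, 479.7 and 370.9 against 323.9, 259 and 261.4 CPM. For these 2 of the 6 ileal genes the pools did not overlap and those labelled Rbm47-IKO were higher, while neither was called by edgeR and Slc51a was called by DESeq2. The pools of the other 4 overlapped, and Slc10a2, the apical bile acid transporter, had 17.2, 7.84 and 14.6 CPM against 44.3, 3.40 and 7.05 CPM, with its highest value in control pool 1. Of the 6 markers of duodenum and proximal intestine, 2 were likewise higher without overlap, Gata4 at 169, 180.7 and 154.1 CPM against 108.3, 120.7 and 146.9 CPM and Slc40a1 at 8.46, 7.26 and 8.73 CPM against 6.97, 5.16 and 5.82 CPM. The pools of the other proximal markers overlapped. Among them Onecut2 was lower on average in the pools labelled Rbm47-IKO, at 22.4, 18.9 and 26.4 CPM against 17.2, 29.3 and 50.9 CPM. The part of intestinal region in the values of Slc13a1 was not tested.

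Slc26a2 (ENSMUSG00000034320, chromosome 18, 61192919 to 61211612) encodes the sulfate exchanger DTDST, loss of which impairs sulfation of cartilage proteoglycans. It had 907, 909.5 and 1041.7 CPM in the pools labelled Rbm47-IKO and 697.7, 457.4 and 575.9 CPM in controls. All 3 of the former were above all 3 of the latter. The fold change was 1.65 (log2 0.72, SE 0.17), and it ranged from 0.58 to 0.88 on the log2 scale with 1 pool left out. Slc26a1 (ENSMUSG00000046959, chromosome 5, 108669878 to 108675569) encodes SAT1, which exchanges sulfate for bicarbonate or oxalate at the basolateral membrane. It was the least abundant of the 10, at 3.21, 2.80 and 5.27 CPM against 4.97, 3.43 and 4.39 CPM in controls, from 106 to 172 counts per library. Its pools overlapped, with both the highest and the lowest value in the pools labelled Rbm47-IKO, and the log2 fold change was -0.18 with an SE of 0.30, from -0.50 without Rbm47-IKO pool 3 to -0.0099 without Rbm47-IKO pool 2. Its counted exons share 141 bases with those of Idua on the opposite strand, and the use of strand in counting is not stated.

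The 2 brush border chloride-bicarbonate exchangers had values on opposite sides of controls, and neither was called. Slc26a3 (ENSMUSG00000001225, chromosome 12, 31390871 to 31473917) encodes DRA, whose loss causes congenital chloride diarrhea. It had 205.8, 209.1 and 221.2 CPM in the pools labelled Rbm47-IKO and 201.7, 155.5 and 179.5 CPM in controls. The pools were apart by a narrow margin, with control pool 1 just below the lowest pool labelled Rbm47-IKO, and the log2 fold change was 0.25 (SE 0.12), or 0.16 without control pool 2. Slc26a6 (ENSMUSG00000023259, chromosome 9, 108854037 to 108912558) encodes PAT1, which also carries oxalate. It had 379.3, 392.7 and 347.3 CPM in the pools labelled Rbm47-IKO and 429.3, 489.1 and 563 CPM in controls, so that every control pool was higher. The log2 fold change was -0.40 (SE 0.13), and it ranged from -0.50 to -0.30 with 1 pool left out.

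The apical sodium-proton exchangers also lay on opposite sides of controls on average, although the pools of each overlapped and neither was called. Slc9a3 (ENSMUSG00000036123, chromosome 13, 74121515 to 74166064) encodes NHE3, the main exchanger for sodium absorption in the small intestine. It had 215.3, 213.9 and 175.5 CPM in the pools labelled Rbm47-IKO and 116.6, 180.6 and 169.9 CPM in controls, with control pool 1 far below the rest. The log2 fold change was 0.37 (SE 0.18), and 0.20 without control pool 1. Slc9a2 (ENSMUSG00000026062, chromosome 1, 40681712 to 40768885) encodes the second apical exchanger, NHE2. It had 267.6, 257.6 and 212.8 CPM in the pools labelled Rbm47-IKO and 266.8, 316.4 and 480 CPM in controls. Control pool 3 stood above all others, and control pool 1 was within the range of the pools labelled Rbm47-IKO. The log2 fold change was -0.53 (SE 0.22), and -0.24 without control pool 3.

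Ratios of 2 counts within a library do not depend on the scaling between libraries, and 3 such ratios were computed after the values of the genes had been seen, so that no test is given. Slc9a3 over Slc9a2 was 0.805, 0.831 and 0.825 in the pools labelled Rbm47-IKO, against control ratios of 0.437, 0.571 and 0.354. The values of the former lay close together and above all of the latter. Slc26a3 over Slc26a6 was 0.543, 0.533 and 0.637 against 0.470, 0.318 and 0.319, again without overlap. A ratio says only that the 2 genes differed unequally, not which of them did.

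**Figure D2:**
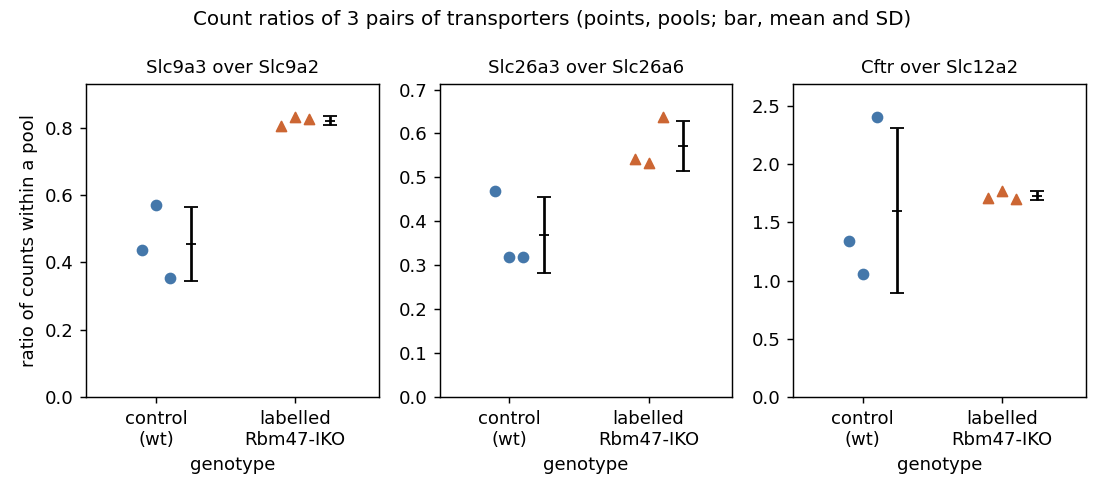
Ratio of the raw counts of 2 transporters within each library, by genotype, on axes that start at 0 (points, pools; bars, mean and SD of 3 pools). Slc9a3 over Slc9a2 is 0.820 ± 0.0137 against 0.454 ± 0.109, Slc26a3 over Slc26a6 is 0.571 ± 0.0577 against 0.369 ± 0.0874, and Cftr over Slc12a2 overlaps.

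The 2 basolateral loading carriers were of unlike abundance and lay on opposite sides of controls on average, and neither was called. Slc4a4 (ENSMUSG00000060961, chromosome 5, 88886818 to 89239653) encodes the electrogenic sodium-bicarbonate cotransporter. It had 345.8, 363.4 and 350.6 CPM in the pools labelled Rbm47-IKO and 285.1, 237 and 301.4 CPM in controls. The former lay within a narrow band above all of the latter, and the log2 fold change was 0.36 (SE 0.12). Slc12a2 (ENSMUSG00000024597, chromosome 18, 57878678 to 57946821) encodes the sodium-potassium-chloride cotransporter NKCC1, which loads crypt cells with chloride and is also made by other cells of the gut wall. It had 70.1, 57.1 and 62.5 CPM in the pools labelled Rbm47-IKO and 84.2, 95.7 and 58.5 CPM in controls. The groups overlapped through control pool 3, and the log2 fold change was -0.33 (SE 0.18) with all pools, -0.50 without that pool and -0.17 without control pool 2. The 8 markers of crypt stem and dividing cells summed to 246.9, 191.7 and 179.1 CPM in the pools labelled Rbm47-IKO and to 302.7, 283.6 and 181.1 CPM in controls, where control pool 3 was also the lowest. Most of that sum was Mki67 and Top2a. Of the 8 genes, Olfm4 (16.8, 16.4 and 12.3 against 43.0, 79.7 and 20.7 CPM) and Pcna (12.3, 13.2 and 9.86 against 15.9, 17.4 and 15.4 CPM) were below controls without overlap. The pools of the others overlapped, and some were higher on average in those labelled Rbm47-IKO. Among these, Lgr5 had 6.82, 7.29 and 4.72 against 5.12, 7.3 and 4.17 CPM, and Smoc2 had 16.8, 15.6 and 39.3 against 15.0, 33.8 and 9.91 CPM. The part of these crypt markers in the values of Slc12a2 was not tested.

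The chloride channel gene Cftr (ENSMUSG00000041301, chromosome 6, 18170687 to 18322768), mutated in cystic fibrosis, had overlapping levels in the genotypes. It had 119.8, 101 and 106 CPM in the pools labelled Rbm47-IKO and 113.1, 101.1 and 140.4 CPM in controls. The ranges overlapped below 119.8 CPM, with control pool 3 above all others, and the log2 fold change was -0.12 (SE 0.14). The sign turned, to 0.041, with an offset for the GC content of transcripts, and to 0.029 without control pool 3, the highest library. Cftr over Slc12a2, the ratio of the secretory channel to its chloride loader, was 1.71, 1.77 and 1.70 in the pools labelled Rbm47-IKO and 1.34, 1.06 and 2.40 in controls, and overlapped. The counted exons of Cftr share 129 bases with those of Gm15592 on the opposite strand.

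**Figure D3:**
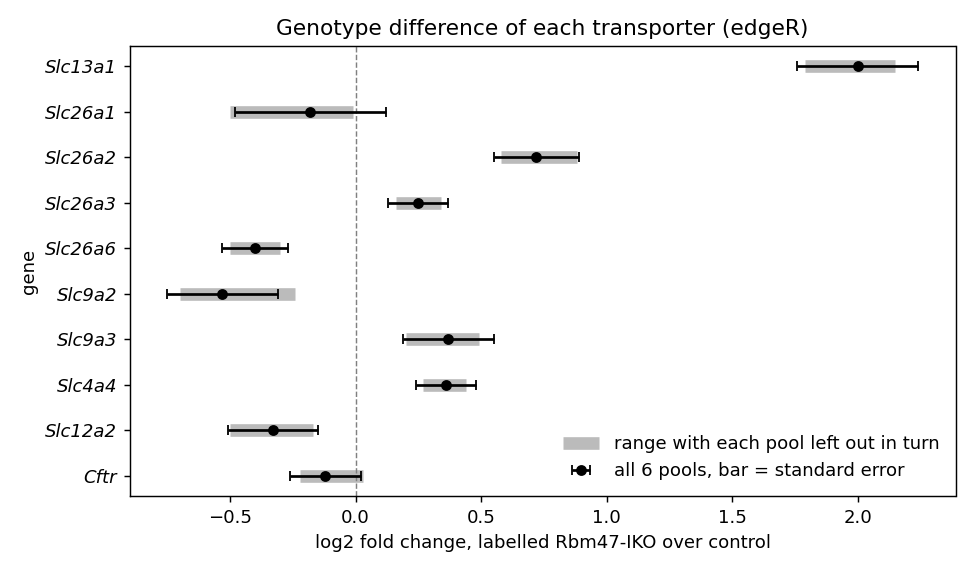
Log2 fold change of each of the 10 transporters, pools labelled Rbm47-IKO over controls (points, edgeR fit of all 6 pools; black bars, standard error; grey bands, range with each pool left out in turn). Slc13a1, at 2.0, stands apart from the others, which lie between -0.53 and 0.72, and the band of Cftr reaches 0.029.

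By the correlation of log2 CPM over the 6 pools, a description that the genotype difference itself dominates, the tested genes outside the list with the pattern most like that of Slc13a1 were Midn (Pearson's r 0.998), Klf13 (0.996) and Csrnp1 (0.996). All 3 had pools that did not overlap between genotypes, with those labelled Rbm47-IKO higher. Midn had 266.8, 254.5 and 249.3 CPM against 160.7, 183.9 and 186 CPM, and in it, as in Slc13a1, library 1 was the highest of the pools labelled Rbm47-IKO and control pool 1 the lowest of the controls. Of the other 16415 tested genes, 228 had an r of 0.95 or more with Slc13a1.

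Genes that work with these carriers were read from 4 lists, made by function with earlier results of these data known. The lists held 81 genes, of which 69 were tested. Of those, 6 were called (8.70%, against 2.70% of all tested genes), 4 higher and 2 lower in the pools labelled Rbm47-IKO. Their median log2 fold change was 0.06. Over all genes the share was 16.8% at an unadjusted edgeR p under 0.05 and 7.83% by DESeq2, given beside the counts of each list below. No test of the lists was made, and because of how they were chosen nothing is read from these shares. Besides the called genes and the lowest or highest of each list, those named below were picked for their function after their values had been seen.

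In the list of sulfate handling and sulfation, edgeR called 1 of the 17 tested genes as higher and 1 as lower, 7 had an unadjusted p under 0.05, and DESeq2 called 4. Bpnt1, the phosphatase that clears the phosphoadenosine phosphate left by sulfation, had 190.8, 196.4 and 180.8 CPM in the pools labelled Rbm47-IKO and 381.5, 517.8 and 526.8 CPM in controls. It was lower in every pool labelled Rbm47-IKO, with a log2 fold change of -1.33 (SE 0.15, adjusted p by edgeR = 0.0095). Mpst, a sulfurtransferase of cysteine breakdown, rose from 20.4, 21.4 and 17.3 CPM in controls to 45.7, 45.0 and 41.1 CPM, a log2 fold change of 1.16 (SE 0.12, adjusted p by edgeR = 0.00875). The genes that make the sulfate donor, Papss1 and Papss2, had log2 fold changes of 0.06 and -0.37 (adjusted p by edgeR = 0.851 and 0.331). Slc13a4 and Sult1c2 were below the expression filter.

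In the list of other anion and bicarbonate transport, edgeR called 1 of the 15 tested genes as higher and 1 as lower, while 6 had an unadjusted p under 0.05 and 6 were called by DESeq2. Slc4a7, a sodium-bicarbonate cotransporter, had 321.5, 328.8 and 362.9 CPM in the pools labelled Rbm47-IKO and 91.7, 143 and 185.6 CPM in controls, without overlap (log2 fold change 1.27, SE 0.24, adjusted p by edgeR = 0.0393). Car2, the cytosolic carbonic anhydrase that supplies protons and bicarbonate, was at 10.5, 10.7 and 10.8 CPM against 22, 23.6 and 35 CPM in controls (log2 fold change -1.33, SE 0.19, adjusted p by edgeR = 0.0168). The lowest value of the list was that of Slc4a10, with -1.46 from 36 to 193 counts per library (edgeR adjusted p = 0.115). The 8 genes below the filter were Slc26a5, Slc26a7, Slc26a8, Slc26a9, Slc4a1, Slc4a9, Best2 and Car1.

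In the list of other sodium-proton exchangers and their regulators, 2 of the 15 tested genes were called as higher and 0 as lower by edgeR, 5 had an unadjusted p under 0.05, and DESeq2 called 2. Slc9a5, an exchanger known mainly from the nervous system, had 6.35, 6.20 and 8.70 CPM in the pools labelled Rbm47-IKO and 1.85, 3.24 and 2.06 CPM in controls (log2 fold change 1.57, SE 0.28, adjusted p by edgeR = 0.0361). Scnn1a, the alpha subunit of the epithelial sodium channel, had 21.9, 21.4 and 19.7 CPM against 10.5, 12.1 and 10.8 CPM in controls (log2 fold change 0.92, SE 0.12, adjusted p by edgeR = 0.0143). Scnn1b, with 2 to 12 counts per pool, was not called (log2 fold change 0.39, adjusted p by edgeR = 0.849), and Scnn1g was below the filter. The scaffolds that hold NHE3 and CFTR in the brush border, Slc9a3r1 and Pdzk1, had log2 fold changes of 0.05 and -0.22 (adjusted p by edgeR = 0.933 and 0.426). The lowest value was that of Slc9a8, at -0.31 (edgeR adjusted p = 0.144).

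Among the 22 genes that drive and control chloride secretion, all were tested and 0 were called by edgeR. Their log2 fold changes ran from -0.42 in the potassium channel gene Kcnq1 to 0.45 in the kinase gene Wnk4 (adjusted p by edgeR = 0.303 and 0.367). The genes Atp1b1 and Atp1b3, for beta subunits of the sodium pump, had 0.25 and 0.38, and the guanylin gene Guca2a and its receptor gene Gucy2c had -0.31 and 0.21, with an edgeR adjusted p from 0.356 to 0.704 in these 4 genes. At an unadjusted edgeR p under 0.05, 1 of the 22 passed, and 0 were called by DESeq2 or limma-voom.

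**Figure D4:**
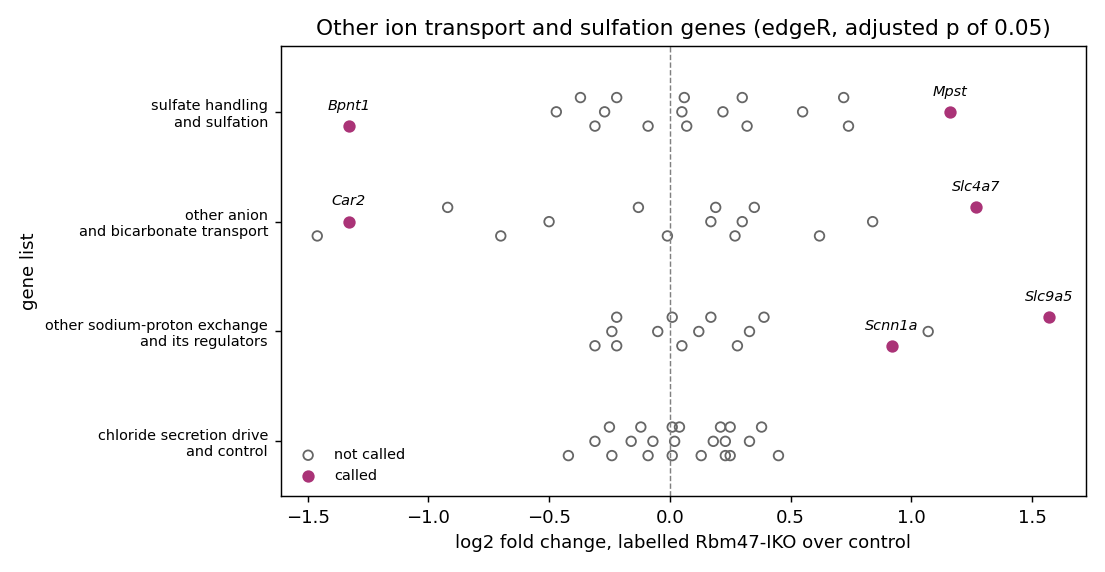
Log2 fold change of the 69 tested genes of 4 functional lists, pools labelled Rbm47-IKO over controls (filled, edgeR adjusted p of 0.05 or less; open, not called). The 6 called genes are named, and all 22 genes of chloride secretion lie between -0.42 and 0.45.

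None of the 6 called genes of these lists was called in all 6 fits with 1 pool left out. Bpnt1, Mpst and Scnn1a were called in 3 of those fits each, Car2 in 2, and Slc4a7 and Slc9a5 in 1 each. Without Rbm47-IKO pool 1, without Rbm47-IKO pool 2 and without control pool 3 none of the 6 was called, with all edgeR adjusted p between 0.0504 and 0.184 in those fits. Their log2 fold changes kept their direction in all 6 fits, from 1.04 to 1.53 for Slc4a7 and from 1.4 to 1.86 for Slc9a5.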

How the data were processed

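RNA of mucosa pooled from 3 mice per the labels was sequenced after poly(A) selection in 6 libraries. Per the submitters' processing notes, reads were aligned to GRCm38 with STAR 2.5.1a and counted with featureCounts 1.4.6-p5 (Subread), and the use of strand is not given in the sources used here. The authors deposited the raw count of each gene, and beside it CPM and RPKM values from the same counts and library totals, which were checked against the counts. The deposited counts were tested with edgeR 4.0.16 (limma 3.58.1, R 4.3.3): filterByExpr, TMM scaling, the quasi-likelihood test of genotype, and Benjamini-Hochberg adjustment over 16425 genes, called at 0.05. CPM and RPKM in the text use TMM-scaled totals. Each library's floor of 3 counts lies between 0.079 and 0.0919 CPM, and floors cover counting error only. The p-values set the genotype difference against the spread between these pools, and an exact permutation test of 3 against 3 pools cannot go below 0.1.

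Members and lists (sulfate handling and sulfation, other anion and bicarbonate transport, other sodium-proton exchange, chloride secretion, and markers of crypt cells, enterocytes, smooth muscle, fibroblasts, B and plasma cells, T cells, proximal intestine, ileum and colon) were chosen with earlier results of these data known. Genes named by rule were the members, Rbm47, each called gene of the functional lists, the extremes of each list, and the 3 genes most correlated with Slc13a1 in log2 CPM (prior count 2). Motifs were counted on the sense strand of the longest 3′ UTR. The alternatives were RLE size factors, library size alone, DESeq2 1.42.0, limma-voom, no filter, a mean of 1 CPM or more, a replicate block, an offset for GC content, the block with that offset, and each pool left out. On simulated counts with 3 pools per genotype and 16425 genes, 2.48% of genes changed by 1.5-fold, 26.7% by 2-fold and 71.1% by 4-fold were called.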

Additional observations from a re-analysis of the deposited data

How the results depend on the processing

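Of all genes tested, 443 were called, and the count was 1131 with DESeq2, 270 with the GC offset and 0 to 431 with 1 pool left out. It was 0 without Rbm47-IKO pool 2 (1729 genes at an unadjusted edgeR p under 0.05), 32 without Rbm47-IKO pool 1, 119 without Rbm47-IKO pool 3 and 11 without control pool 3. Of the members, 1 was called, against 2 with DESeq2 and 0 to 1 with a pool left out. Of the other ion transport and sulfation genes, 6 were called, against 12 with DESeq2 and 0 to 5 with a pool left out. Whether the pool numbers pair the samples cannot be decided from 3 pools per genotype. The correlations of same-numbered pools, as deviations from their group means, were 0.408, -0.00258 and -0.277. Those of differently numbered pools ran from -0.536 to 0.479. With the replicate block, 100 genes, 0 members and 2 other genes were called, and with the replicate block and the GC offset 56, 0 and 1. The log2 fold change of Cftr reversed to 0.041 with the GC offset, to 0.050 with the block and GC offset, and ranged from -0.22 to 0.029 with a pool left out. Slc13a1 was called in 7 of the 9 alternatives that keep all pools, its log2 fold change was 2.0 to 2.21 over all 9, with the highest in the block with GC offset, where it was not called, and the other 8 members kept their sign in all 15 alternatives. Log2 fold changes correlated with GC content over 16221 genes (Spearman's rho 0.271). The cause of these shifts was not tested. Genes changed by 1.5-fold or less were rarely called in simulated data of this size.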
